A study of Bos taurus with 24 samples.

Results

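Cells given a mixture of palmitic and oleic acid were compared with cells given oleic acid alone at the same total dose, after 7 days, in 6 of the 24 libraries of the study. The 3 libraries of the mixture (MIX) and the 3 of oleic acid (OA) were taken by their treatment and day labels and set against each other within a cow, since cows 1, 2 and 3 each gave a library of both. Pre-adipocytes, the precursors of fat cells, were isolated from subcutaneous adipose tissue of Holstein cows and induced to form adipocytes in culture. MIX medium held 60% palmitic acid (PA) and 40% oleic acid at 300 µM in total, and OA medium held oleic acid alone at 300 µM. The same cows also gave a library with PA alone at 300 µM and a library in basal medium without added fatty acid (CON), and all 4 treatments were run for 4 days in cows 4, 5 and 6, there with the fatty acids present from induction on. All groups shared a basal differentiation medium with fetal bovine serum, insulin, acetate and troglitazone, an agonist of the adipogenic receptor PPARG, so CON was not free of serum lipid or of an adipogenic drug. Dexamethasone and isobutylmethylxanthine, which start adipogenesis, were present only in the early part of induction, and at day 7 the fatty acids were given after that. MIX therefore differed from OA both in holding PA and in holding less oleic acid, and these cannot be told apart in this comparison.

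Palmitic acid is a saturated and oleic acid a monounsaturated fatty acid, and both are main fatty acids of bovine adipose tissue. Cells activate them to acyl-CoA and then either esterify them into phospholipids and triacylglycerol, which is stored in lipid droplets coated by perilipins, or oxidise them in mitochondria. Fatty acids are also ligands of PPAR receptors, which raise transcription of droplet, oxidation and uptake genes, while palmitic acid is known in many cell types for endoplasmic reticulum stress and for feeding ceramide synthesis, effects that oleic acid is known to oppose.

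The 12 libraries of day 7 held 14118798 to 24008811 reads on genes, of which the MIX libraries held 14827192 to 23784643 and the OA libraries 14398902 to 22995878. The adipocyte label was checked against 18 adipocyte markers, of which 16 were found and 7 reached the level needed for a test. *ADIPOQ*, the adipocyte hormone adiponectin, was listed at 0 FPKM (fragments of a gene scaled to its length and to the library size) in all 12 libraries. *PPARG*, *FABP4* and *LPL*, which define lipid-storing fat cells, were below the level needed for a test. *PPARG* itself had 0.162, 0.190 and 0.393 FPKM in the MIX libraries of cows 1, 2 and 3, against 0.207, 0.119 and 0.312 FPKM in the OA libraries. *RBP4*, which also serves outside adipocytes, was the highest of the tested markers. The summed level of the 7 tested markers was 93.4, 101 and 57.5 FPKM in MIX, against 125, 113 and 68.4 FPKM in OA. *RBP4* alone made up most of each of these sums. Of the 7, 3 were higher in MIX (*PLIN1*, *CIDEA* and *LIPE*) and 4 lower, with a median MIX minus OA difference of -0.005 (log2). Of 14 markers of macrophages and other leukocytes that were found, 4 were tested, and *PTPRC*, the general leukocyte marker CD45, was listed at 0 in all 6 libraries. The fibroblast genes *LUM* (1466, 1368 and 1624 FPKM in MIX, against 1652, 1441 and 1750.0 FPKM in OA) and *VIM* (3497, 2609.6 and 3644 FPKM in MIX, against 4244, 2563 and 3706 FPKM in OA) were far above these. In such bulk samples fewer cells of a type and less RNA per cell cannot be told apart.

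No gene of 12615 tested passed an adjusted p of 0.05 between MIX and OA at day 7 by limma with cow as a block (0.0% higher and 0.0% lower), and the smallest adjusted p was 0.299. Differences are MIX minus OA in log2(FPKM + 1). They are given with the SE of the limma fit to all 12 day 7 libraries, which is not the spread of the 3 cow differences. At an unadjusted p under 0.05 there were 1313 genes (10.4%), of which 475 were higher in MIX (3.77%) and 838 lower (6.64%). Most differences were small, with 90 genes more than 0.5 higher on the log2 scale in MIX (0.713%) and 133 more than 0.5 lower (1.05%), around a median of -0.00 over all genes. The 3 cows shared little of this pattern, since the differences of cow 1 correlated over genes with those of cow 2 at 0.0362 and with those of cow 3 at 0.0795, and those of cows 2 and 3 with each other at -0.0166. By direction alone, 1712 genes were higher in MIX in 3 of 3 cows (13.6%) and 1947 were lower (15.4%).

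Counting models gave a short list of genes that were almost all lower in MIX. On the whole reads recovered from the FPKM values, edgeR called 0 genes higher (0.0%) and 2 lower (0.0146%) of 13658, *ANXA8L1* and *COL18A1*. DESeq2 called 1 gene higher, *FOSL1* (0.00867% of the 11539 genes with an adjusted p), and 32 lower (0.277%). At an unadjusted p under 0.05, edgeR gave 1442 genes (10.6%), with 604 higher in MIX (4.42%) and 838 lower (6.14%), and DESeq2 gave 964 (7.06%), with 315 higher (2.31%) and 649 lower (4.75%). Without the OA library of cow 3, limma called 6 genes, all lower in MIX, and edgeR called 91, of which 11 were higher and 80 lower. With edgeR, neither gene was called without the cow block or in the 6 MIX and OA libraries alone (0 calls each). *COL18A1*, *PCOLCE2*, *DPT*, *SRPX*, *TSPO*, *GDF15*, *C3*, *CHI3L1*, *TNFRSF6B*, *MIF*, *CTSC*, *RPS20* and ENSBTAG00000015818 were named because edgeR or DESeq2 called them, so their calls are part of that choice and no support for it. The plot of difference against p shows the named genes over all genes tested.

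**Figure D1:**
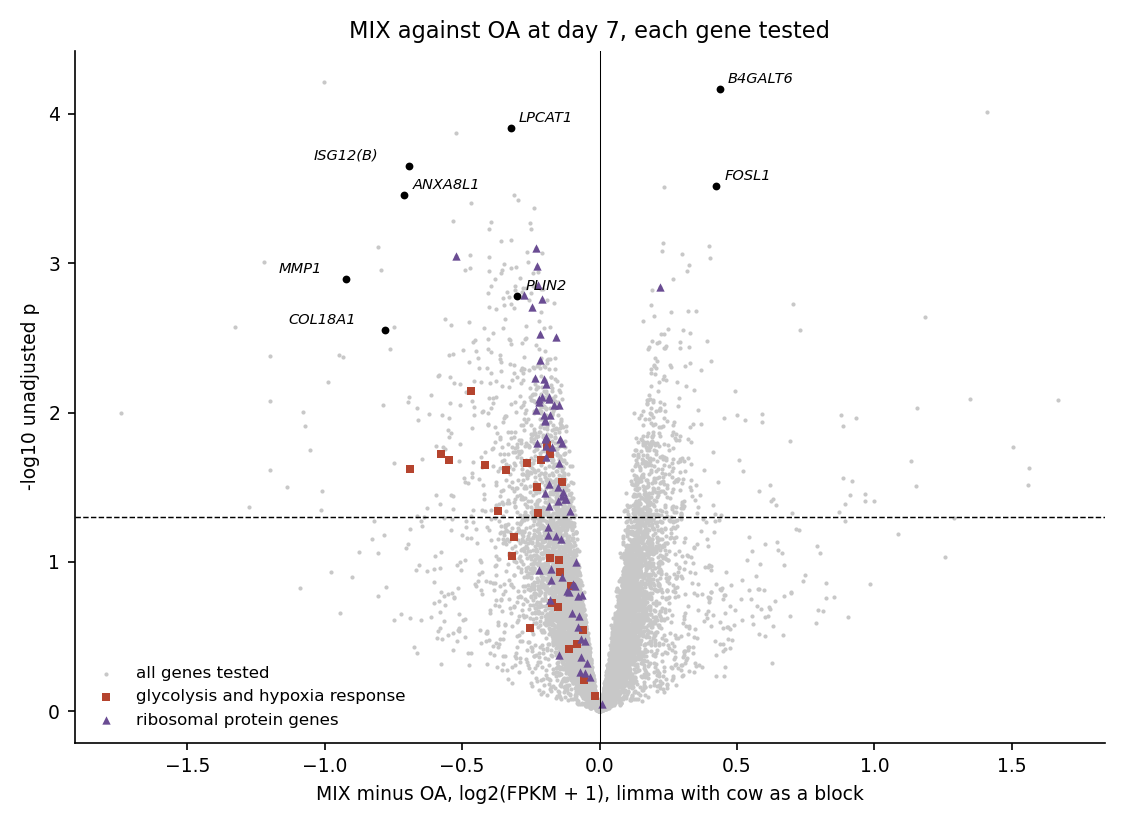
Each grey point is 1 of the 12615 genes tested, with the MIX minus OA difference on the log2(FPKM + 1) scale on the x axis and -log10 of the unadjusted limma p on the y axis; squares are glycolysis and hypoxia response genes and triangles ribosomal protein genes. All 28 squares and 71 of 73 triangles lie left of 0, and *ANXA8L1*, *ISG12(B)* and *COL18A1* lie far to the left with *B4GALT6* and *FOSL1* to the right.

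The gene with the smallest p by DESeq2 was *ANXA8L1* (ENSBTAG00000018499, chromosome 28), an annexin, a family of proteins that bind membrane phospholipids in the presence of calcium. It had 36.01, 31.02 and 12.7 FPKM in the MIX libraries of cows 1, 2 and 3, against 74.1, 57.3 and 15.3 FPKM in the OA libraries. It was lower in MIX in every cow, but the groups overlapped, with cow 3 low under either treatment. PA gave 45.9, 45.1 and 13.4 FPKM and CON 47.2, 43.1 and 16.3 FPKM, so OA was the highest of the treatments in cows 1 and 2 and CON in cow 3. The MIX minus OA difference was -0.71 ± 0.13 (log2, SE of the limma fit, 3 cows per treatment), with an adjusted p of 0.0274 by edgeR, 2.06e-06 by DESeq2 and 0.299 by limma. Over 31 alternatives the adjusted p was 8.38e-11 to 1.00, under 0.05 in 9 of them. The 31 included fits chosen after the data were examined. The smallest value came from such a fit, edgeR without a filter, which called 194 genes. How reads shared with other annexin genes were counted is not given, and their part in these values was not tested.

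*COL18A1* (ENSBTAG00000023907, chromosome 1), a basement membrane collagen from which endostatin is cut, had 4.37, 7.93 and 1.42 FPKM in MIX, against 10.8, 19.2 and 1.49 FPKM in OA. Cows 1 and 2 carried the difference, and cow 3 had nearly equal values. Its differences by cow were -1.13, -1.18 and -0.04 (log2), and its fitted difference was -0.78 ± 0.20, with an adjusted p of 0.0274 by edgeR, 0.0458 by DESeq2 and 0.334 by limma. Its adjusted p over 31 alternatives was 3.56e-12 to 1.00, under 0.05 in 9. The smallest value again came from edgeR without a filter, a fit chosen after the data were examined. PA gave 4.04, 8.29 and 1.13 FPKM and CON 4.56, 10.1 and 1.14 FPKM, both near MIX.

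Other secreted and matrix genes were lower in MIX without reaching the limma threshold. Members of any list that neither the ranking nor the smallest p of a list named, such as *COL1A2*, *PLAUR*, *HSPA5* and *BNIP3*, were picked after their values were seen. *IGFBP6*, a binding protein of insulin-like growth factors, had 34.7, 65.3 and 22.7 FPKM in MIX, against 57.4, 87.8 and 27.6 FPKM in OA (-0.47 ± 0.09 log2), lower in every cow with overlapping groups. *CPZ*, a carboxypeptidase of the extracellular matrix, had 15.7, 7.63 and 12.8 FPKM in MIX, against 23.7, 14.1 and 15.2 FPKM in OA (-0.53 ± 0.10). DESeq2 called both, and both were lower in MIX in every cow. *PCOLCE2*, which speeds the trimming of procollagen, had 52.4, 38.9 and 77.8 FPKM in MIX, against 67.9, 55.2 and 88.3 FPKM in OA (-0.35 ± 0.07), and was also called by DESeq2. *DPT*, the matrix protein dermatopontin, had 11.7, 1.62 and 0.802 FPKM in MIX, against 16.9, 3.36 and 1.48 FPKM in OA, at a level that differed more between cows than between treatments. *SRPX* had 44.7, 38.2 and 40.6 FPKM in MIX, against 63.1, 48.4 and 45.6 FPKM in OA, and its MIX libraries all lay below its OA libraries. *POFUT2*, which adds fucose to thrombospondin repeats of secreted proteins, had 57.1, 64.4 and 80.04 FPKM in MIX, against 75.3, 80.7 and 93.3 FPKM in OA (-0.31 ± 0.06). Of 31 extracellular matrix genes tested, 21 were lower in MIX and 10 higher, 6 lower in every cow against 0 higher in every cow (19.4% and 0.0%, against 15.4% and 13.6% of all genes), and 0 passed by limma, edgeR or DESeq2. Their median was -0.23, 0.01 and 0.03 in cows 1, 2 and 3, so the shift lay in cow 1, and without the OA library of that cow 21 members were higher in MIX and 10 lower. *COL1A2*, a chain of type I collagen, showed this, with 2155, 7294 and 5717 FPKM in MIX, against 3440.2, 6853 and 5958 FPKM in OA. *DCN*, the proteoglycan decorin, had 793, 897 and 799.7 FPKM in MIX, against 1204, 954 and 877 FPKM in OA (-0.27 ± 0.09).

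Matrix proteases and their regulators leaned the same way, with 12 of 14 lower in MIX, 7 of them in every cow (all genes 15.4%), and a median of -0.15. *MMP1*, a collagenase that cuts fibrillar collagen, had 6.33, 0.956 and 4.06 FPKM in MIX, against 9.89, 4.88 and 6.74 FPKM in OA (-0.92 ± 0.20), lower in every cow and most so in cow 2. PA gave 3.45, 1.41 and 3.66 FPKM and CON 3.83, 1.64 and 4.31 FPKM. A neighbouring gene on chromosome 15 described as interstitial collagenase-like, ENSBTAG00000015818, had 2.996, 0.917 and 0.677 FPKM in MIX, against 4.83, 3.53 and 1.55 FPKM in OA, and was called by DESeq2. Reads of such like sequences could be split between them. *PLAUR*, the urokinase receptor, had 106, 102 and 70.3 FPKM in MIX, against 162, 117 and 75.9 FPKM in OA (-0.31 ± 0.13). No member passed by limma, and without the OA library of cow 1 the median of the list was -0.05.

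**Figure D2:**
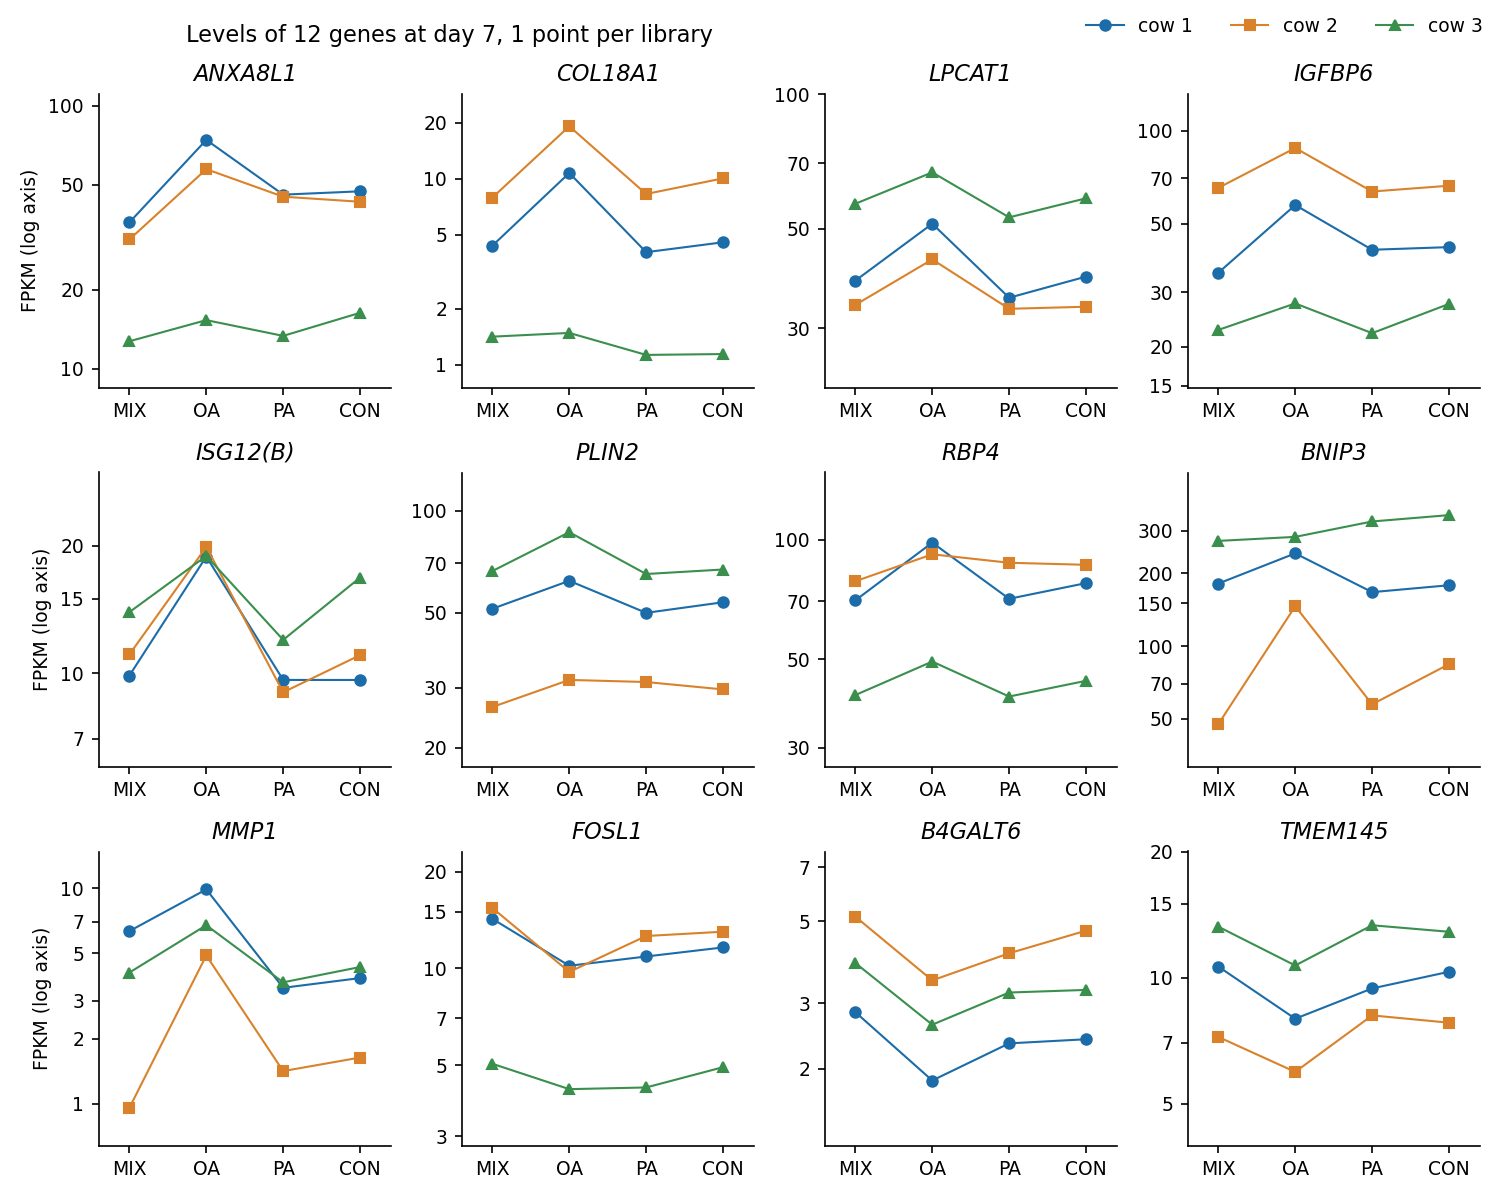
Levels of 12 genes in FPKM (log axis) in the 12 libraries of day 7, with the treatments MIX, OA, PA and CON on the x axis and 1 line per cow. In 9 panels, from *ANXA8L1* to *MMP1*, OA lies above MIX in each cow, and in the last 3, *FOSL1*, *B4GALT6* and *TMEM145*, it lies below.

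Among lipid genes, a few with known roles in phospholipids and droplets were lower in MIX, while the lists of lipid pathways were divided between higher and lower members. *LPCAT1*, which turns lysophosphatidylcholine into phosphatidylcholine by adding an acyl chain, had 38.3, 33.8 and 56.9 FPKM in MIX, against 51.3, 42.7 and 66.9 FPKM in OA. MIX was lower in each cow by a like amount (-0.41, -0.33 and -0.23 log2), though the groups overlapped, with cow 3 high in all 4 libraries. Its difference was -0.32 ± 0.05 (95% interval -0.44 to -0.21), the smallest p of the genes named as lower in MIX (limma unadjusted p = 0.000124), with an adjusted p of 0.00491 by DESeq2, 0.0946 by edgeR and 0.299 by limma. Its adjusted p over 31 alternatives was 0.00246 to 1.00.

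*PLIN2*, the perilipin that coats droplets in most cells and a target of PPAR receptors, had 51.4, 26.4 and 66.4 FPKM in MIX, against 62.1, 31.7 and 86.4 FPKM in OA. It was lower in MIX in every cow. Under PA (49.96, 31.2 and 65.04 FPKM) and CON (53.7, 29.7 and 67.1 FPKM), *PLIN2* mostly lay near its MIX level. In the cow with 26.4 FPKM in MIX, *PLIN2* under PA and CON lay closer to its OA level. Its difference was -0.30 ± 0.07 (95% interval -0.46 to -0.14), with an adjusted p of 0.0497 by DESeq2 and 0.3 by limma, and 0.00993 to 1.00 over 31 alternatives. *RBP4*, the plasma carrier of retinol, had 70.4, 78.6 and 40.7 FPKM in MIX, against 98.2, 91.8 and 49.4 FPKM in OA (-0.32 ± 0.07). *APOE*, a lipid carrier and a target of LXR receptors, had 60.3, 40.2 and 50.3 FPKM in MIX, against 84.1, 58.4 and 58.1 FPKM in OA (-0.40 ± 0.09). *TSPO*, a cholesterol-binding protein of the outer mitochondrial membrane, had 204, 288 and 321 FPKM in MIX, against 279.99, 364 and 351 FPKM in OA (-0.31 ± 0.07). All 3 were lower in MIX in every cow and called by DESeq2, with overlapping groups.

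Of 16 PPAR-responsive lipid genes tested, 10 were lower in MIX and 6 higher. In every cow 4 were lower and 0 higher (25% and 0%, against 15.4% and 13.6% of all genes). Of limma, edgeR and DESeq2, only DESeq2 called a member, *PLIN2*. *ANGPTL4*, a secreted inhibitor of lipoprotein lipase that PPAR receptors control, had 41.5, 11.5 and 76.1 FPKM in MIX, against 48.1, 18.8 and 80.1 FPKM in OA (-0.31 ± 0.13), with most of the difference in cow 2. *CPT1A*, which brings acyl chains into mitochondria for oxidation, had 26.7, 18.3 and 13.96 FPKM in MIX, against 21.96, 18.4 and 16.8 FPKM in OA. It was higher in MIX in cow 1 and lower in cow 3, and its 95% interval was -0.22 to 0.23. *PDK4* and *CD36*, also PPAR targets, stayed under the level needed for a test. Of 26 fatty acid oxidation genes, 20 were lower in MIX and 6 higher, with a median of -0.06. In every cow 4 were lower and 3 higher (15.4% and 11.5%), near the 15.4% and 13.6% of all genes. *ETFA*, which takes electrons from the acyl-CoA dehydrogenases, had 20.4, 21.8 and 21.6 FPKM in MIX, against 27.2, 23.99 and 23.4 FPKM in OA (-0.21 ± 0.07), and its groups did not overlap. *HADHA*, of the mitochondrial trifunctional protein, had 31.2, 25.8 and 30.02 FPKM in MIX, against 34.8, 27.9 and 34.5 FPKM in OA (-0.15 ± 0.05). Neither passed.

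Synthesis genes were divided. Of 19 glycerolipid synthesis genes 10 were higher in MIX and 9 lower, and of 11 droplet and lipolysis genes 7 were higher and 4 lower. The droplet list turned with the level asked of its genes, with a median of 0.06 over the 11 and of -0.12 over the 5 with a mean of at least 5 FPKM, of which 2 were higher and 3 lower. *FITM2*, which helps form droplets, had 14.05, 31.9 and 19.04 FPKM in MIX, against 12.5, 26.2 and 17.6 FPKM in OA (0.18 ± 0.06), higher in every cow. *DGAT1*, which makes triacylglycerol, had 32.4, 26.9 and 37.1 FPKM in MIX, against 35.3, 25.1 and 40.8 FPKM in OA, with an interval of -0.18 to 0.08. Of 17 genes of fatty acid synthesis and desaturation, 8 were higher and 9 lower in MIX, and without the OA library of cow 1 these were 13 and 4. *SCD*, the desaturase that makes oleic from stearic acid, had 27.9, 43.5 and 45.4 FPKM in MIX, against 35.5, 31.8 and 37.8 FPKM in OA. It was lower in MIX in cow 1 and higher in cows 2 and 3, and its interval of -0.53 to 0.77 was wide. PA gave 28.6, 88.02 and 54.5 FPKM and CON 27.9, 86.8 and 74.7 FPKM of *SCD*, so both fatty acid groups with oleic acid lay well below them in cow 2. *FASN*, fatty acid synthase, had 23.5, 34.7 and 35.004 FPKM in MIX, against 27.8, 31.3 and 33.6 FPKM in OA, with an interval of -0.44 to 0.41. Of 24 cholesterol genes, 16 were higher and 8 lower in MIX, with medians of -0.16, 0.22 and 0.04 in cows 1, 2 and 3, and without the OA library of cow 2 only 2 were higher and 22 lower.

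Ceramide synthesis and stress genes, which palmitic acid is known to affect, gave no call by limma or edgeR. Of 17 ceramide and sphingolipid genes, 10 were higher and 7 lower in MIX, with a median of 0.02. *SPTLC2*, of the enzyme that joins palmitoyl-CoA to serine, had 51.1, 53.3 and 35.02 FPKM in MIX, against 51.3, 50.9 and 35.4 FPKM in OA, with an interval of -0.09 to 0.12. Of 31 genes of the integrated stress and unfolded protein responses, 17 were higher and 14 lower, and without the OA library of cow 2 these were 12 and 19. Members with 1 direction in every cow were 4 higher and 4 lower. The unadjusted limma p was under 0.05 for 3 higher and 4 lower members (all genes 3.77% and 6.64%). *SEL1L*, *SESN2* and *HYOU1* were higher in MIX, with intervals of 0.04 to 0.30, 0.01 to 0.34 and 0.004 to 0.30. *HSPA5*, the main chaperone of the endoplasmic reticulum, had 152, 181 and 316 FPKM in MIX, against 138, 179 and 322 FPKM in OA, with an interval of -0.07 to 0.16. *DDIT3*, the stress transcription factor CHOP, had 21.03, 21.9 and 9.90 FPKM in MIX, against 17.4, 16.5 and 10.8 FPKM in OA (0.18 ± 0.09), higher in cows 1 and 2 and lower in cow 3. *DDIT4*, an inhibitor of mTORC1 signalling, was the member called by DESeq2, with 146, 59.7 and 292 FPKM in MIX, against 222, 87.3 and 324 FPKM in OA (-0.43 ± 0.12). *PDIA4*, an oxidoreductase of the endoplasmic reticulum, had 92.9, 111 and 160.5 FPKM in MIX, against 119, 130.2 and 178 FPKM in OA (-0.24 ± 0.05). *GDF15*, a secreted stress hormone outside that list, had 71.2, 12.02 and 88.3 FPKM in MIX, against 91.2, 16.7 and 127 FPKM in OA (-0.44 ± 0.12), lower in every cow. Of 20 genes of oxidative stress defence, 13 were lower and 7 higher. *SRXN1*, which restores oxidised peroxiredoxins, had 27.8, 19.2 and 17.7 FPKM in MIX, against 34.3, 21.5 and 21.5 FPKM in OA (-0.24 ± 0.07), lower in every cow.

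Lists of immune genes gave no call, while single immune and surface genes outside them were lower in MIX. Of 9 interferon response genes tested, 3 were higher in MIX and 6 lower. In every cow 2 were higher and 1 lower (22.2% and 11.1%, against 13.6% and 15.4% of all genes). With 0 called by limma, edgeR or DESeq2, 0 higher and 1 lower had an unadjusted limma p under 0.05 (all genes 3.77% and 6.64%). *IFIT1* and *IFIT3*, interferon-induced antiviral proteins, were among the higher ones, at 0.18 ± 0.15 and 0.15 ± 0.11 (log2). *ISG12(B)*, of a family first known as interferon-stimulated, had 9.87, 11.1 and 13.9 FPKM in MIX, against 18.9, 19.9 and 18.9 FPKM in OA. Its MIX libraries all lay below its OA libraries, a separation found for 135 genes lower in MIX (1.07%) and 179 higher (1.42%). PA gave 9.64, 9.01 and 11.99 FPKM and CON 9.64, 11.03 and 16.8 FPKM. Its difference was -0.69 ± 0.12, called by DESeq2 and under an adjusted p of 0.05 in 4 of 31 alternatives. *C3*, the central complement protein, had 8.06, 9.15 and 4.75 FPKM in MIX, against 13.3, 14.7 and 4.99 FPKM in OA (-0.45 ± 0.12). *CHI3L1*, a secreted chitinase-like protein, had 7.84, 0.540 and 0.872 FPKM in MIX, against 14.9, 2.58 and 1.40 FPKM in OA (-0.81 ± 0.17). Both were lower in MIX in every cow, though *C3* was nearly equal in cow 3 and *CHI3L1* was high in cow 1 only. *TNFRSF6B*, a decoy receptor, had 384, 42.6 and 321 FPKM in MIX, against 589.97, 67.5 and 358 FPKM in OA (-0.47 ± 0.12). *MIF*, a cytokine, had 220.1, 156 and 404 FPKM in MIX, against 277, 242 and 456 FPKM in OA (-0.38 ± 0.09). *CTSC*, a lysosomal protease, had 48.1, 19.6 and 49.5 FPKM in MIX, against 62.4, 28.05 and 57.2 FPKM in OA (-0.36 ± 0.08). These 5 genes were chosen from DESeq2's calls, and 32 of its 33 calls were lower in MIX. Of 15 inflammation genes tested, 10 were lower and 5 higher in MIX, and none was called by limma, edgeR or DESeq2. At an unadjusted limma p under 0.05, 0 were higher and 2 lower (all genes 3.77% and 6.64%). *PTGES*, which makes prostaglandin E2, had the smallest p of that list, with 60.2, 39.9 and 34.4 FPKM in MIX, against 76.1, 49.5 and 37.3 FPKM in OA (-0.25 ± 0.06). The tested leukocyte markers summed to 25.5, 6.27 and 13.5 FPKM in MIX, against 26.9, 8.60 and 13.1 FPKM in OA, and their part in these values was not tested.

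The ranking also named other genes as lower in MIX. *IDH2*, mitochondrial isocitrate dehydrogenase, had 16.4, 17.4 and 20.4 FPKM in MIX, against 19.97, 20.5 and 23.8 FPKM in OA (-0.24 ± 0.04). *ATP1B1*, a subunit of the sodium and potassium pump, had 28.3, 57.4 and 38.5 FPKM in MIX, against 40.9, 78.6 and 41.6 FPKM in OA (-0.36 ± 0.07). Both were lower in every cow, as were *POMC* (-0.30 ± 0.06), *EFNA4* (-0.40 ± 0.08), *TYMS* (-0.25 ± 0.05), *TRAPPC6A* (-0.40 ± 0.08) and *SH3BP5L* (-0.25 ± 0.05), of which *SH3BP5L* alone had groups that did not overlap.

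On the higher side, *B4GALT6*, which makes lactosylceramide, had the smallest p of the named genes. It had 2.84, 5.14 and 3.85 FPKM in MIX, against 1.86, 3.46 and 2.63 FPKM in OA. The differences by cow were 0.43, 0.46 and 0.42 (log2), nearly the same in each, and the groups overlapped. The fitted difference was 0.44 ± 0.07 (95% interval 0.29 to 0.58), with an unadjusted p of 6.83e-05 and an adjusted p of 0.299 by limma. *FOSL1*, a subunit of the AP-1 transcription factor, had 14.3, 15.4 and 5.05 FPKM in MIX, against 10.2, 9.76 and 4.21 FPKM in OA. MIX was higher in every cow, and PA gave 10.9, 12.6 and 4.26 FPKM. Its difference was 0.43 ± 0.08, with an adjusted p of 0.0308 by DESeq2, 0.0946 by edgeR and 0.299 by limma, and 0.0012 to 1.00 over 31 alternatives. *CFL2*, which severs actin filaments, had 53.1, 84.96 and 49.7 FPKM in MIX, against 43.9, 70.6 and 44.1 FPKM in OA (0.23 ± 0.04). *GAB1*, an adaptor of growth factor receptors, had 4.22, 7.40 and 4.64 FPKM in MIX, against 2.84, 5.78 and 3.89 FPKM in OA (0.32 ± 0.07). *PRKAB1*, a regulatory subunit of the energy sensor AMPK, had 17.3, 11.2 and 11.6 FPKM in MIX, against 15.3, 9.79 and 9.87 FPKM in OA (0.19 ± 0.04). None of these 3 was called by limma, edgeR or DESeq2. The others were *SORBS2* (0.33 ± 0.07), *TMEM145* (0.30 ± 0.06), *SLC38A7* (0.27 ± 0.06), *PIGG* (0.23 ± 0.05), *TMEM131* (0.23 ± 0.05), *TNFAIP1* (0.19 ± 0.04), a copy of *RPL10* on chromosome 1 (0.22 ± 0.05) and the small RNA entries RF01892, bta-mir-2285ah and bta-mir-2303. Both miRNA entries rested on few reads, 10 in MIX and 1 in OA for bta-mir-2285ah and 18 in MIX and 9 in OA for bta-mir-2303, summed over the cows.

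Glycolysis and hypoxia response genes were lower in MIX as a group, and the difference came mainly from cow 2. All 28 members had a negative fitted difference, against 51.4% of all genes (48.6% were positive), and 13 were lower in every cow, against 15.4% of all genes. Their median was -0.20, with -0.19, -0.41 and -0.01 in cows 1, 2 and 3. No member passed by limma, edgeR or DESeq2, although 14 were lower at an unadjusted limma p under 0.05 and 0 higher (all genes 6.64% and 3.77%). Their summed level was 7893, 5679 and 10092 FPKM in MIX, against 8864, 7340.1 and 9947 FPKM in OA, higher in MIX in cow 3. PA summed to 7614, 6134 and 10017 FPKM and CON to 8091, 6657 and 10589 FPKM. Without cow 2 the median was -0.10, with 25 members lower and 3 higher. In cow 2, OA had the highest and MIX the lowest sum of the 4 libraries.

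*BNIP3*, a mitophagy receptor induced by hypoxia, had 181, 47.6 and 272 FPKM in MIX, against 242, 146 and 283 FPKM in OA, and its differences by cow were -0.41, -1.60 and -0.05 (log2). *SLC2A1*, the glucose transporter GLUT1, had 15.9, 5.65 and 29.5 FPKM in MIX, against 19.3, 15.6 and 32.8 FPKM in OA (-0.58 ± 0.20). *LDHA*, which turns pyruvate into lactate, had 615, 224 and 546 FPKM in MIX, against 722, 435 and 516 FPKM in OA (-0.37 ± 0.16). In each of these the gap in cow 2 was the largest of the cows, and *LDHA* was higher in MIX in cow 3. *VEGFA*, the vascular growth factor, had 212, 57.1 and 231 FPKM in MIX, against 240.2, 98.4 and 243 FPKM in OA (-0.34 ± 0.13). *ADM*, the vasodilator peptide adrenomedullin, had 306, 49.2 and 370.1 FPKM in MIX, against 356, 98.7 and 422 FPKM in OA (-0.47 ± 0.14), with the smallest p of the list (limma unadjusted p = 0.00714, adjusted p = 0.361). *HIF1A*, the oxygen-regulated transcription factor whose own control is largely at the protein level, had 574, 219 and 561 FPKM in MIX, against 490.5, 320.3 and 564 FPKM in OA, higher in MIX in cow 1 and lower in cow 2. *PGK1* and *PKM*, of lower glycolysis, differed by -0.21 ± 0.08 and -0.14 ± 0.05.

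**Figure D3:**
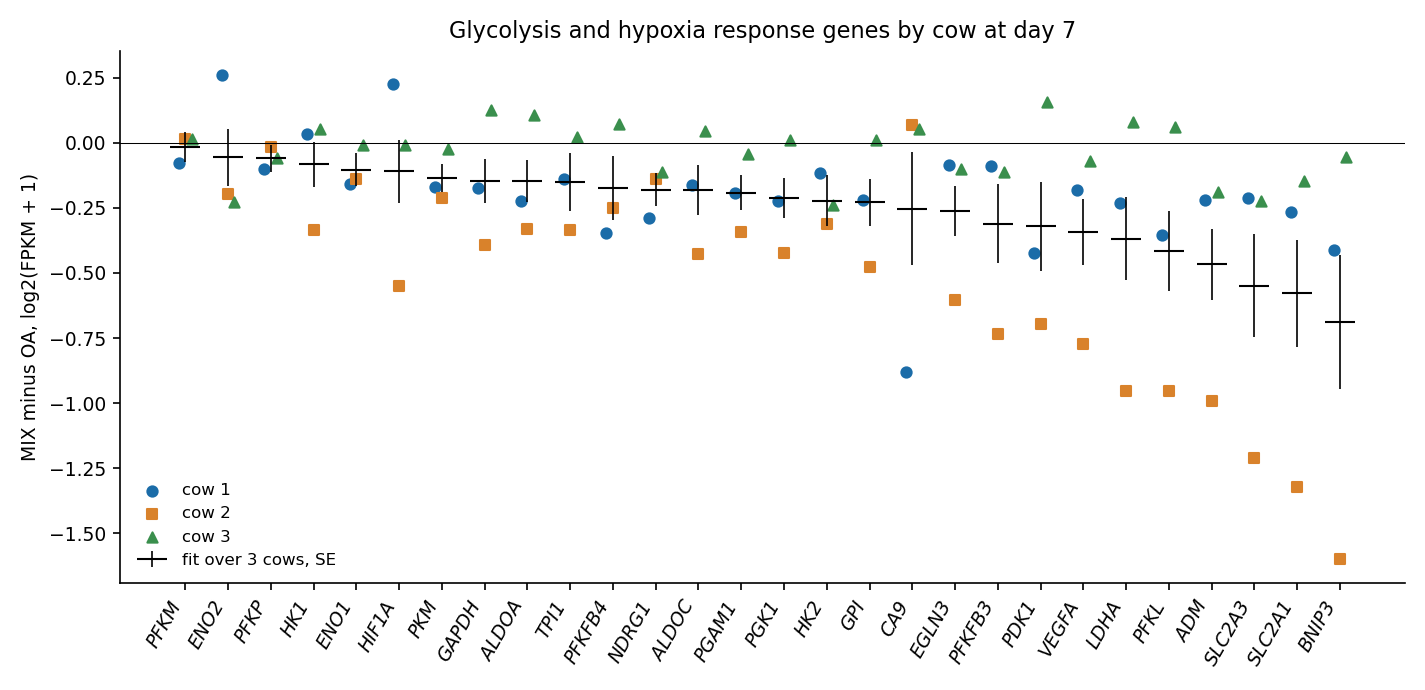
MIX minus OA differences on the log2(FPKM + 1) scale (y axis) of the 28 glycolysis and hypoxia response genes (x axis), with 1 point per cow and the fitted value with its SE as a black bar. The points of cow 2 lie lowest for most genes, down to -1.60 for *BNIP3*, and those of cow 3 lie closest to 0 for most.

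Proliferation genes were lower in MIX for 26 of 29 members and higher for 3. In every cow 11 were lower and 0 higher (37.9% and 0.0%, against 15.4% and 13.6% of all genes). Their median was -0.13, with -0.12, -0.30 and -0.06 in cows 1, 2 and 3, and none was called by limma, edgeR or DESeq2. Without cow 2 the median was -0.06, with 18 members lower and 11 higher. *TYMS*, which makes thymidylate for DNA, had 12.3, 17.5 and 18.2 FPKM in MIX, against 15.02, 21.4 and 21.2 FPKM in OA. *CCNB2*, a mitotic cyclin, had 1.24, 3.95 and 2.46 FPKM in MIX, against 2.07, 5.16 and 3.21 FPKM in OA (-0.35 ± 0.08). *MCM2*, of the replicative helicase, had 5.72, 8.42 and 8.46 FPKM in MIX, against 7.31, 9.92 and 9.72 FPKM in OA (-0.23 ± 0.08). All 3 were lower in MIX in every cow, by less than the spread between cows in level.

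Genes of ribosomal proteins, a group chosen after their values were seen and given with no test, were lower in MIX in 71 of 73 and higher in 2. Their median was -0.17, with -0.32, -0.01 and -0.17 in cows 1, 2 and 3, so that of cow 2 lay near 0. In every cow 37 of the 73 were lower and 1 higher (50.7% and 1.37%, against 15.4% and 13.6% of all genes). They took 2.41, 2.71 and 3.27% of reads in the MIX libraries, against 2.80, 2.82 and 3.65% in the OA libraries. *RPS20*, of the small subunit, had 636, 767 and 1126 FPKM in MIX, against 848, 848 and 1355 FPKM in OA (-0.27 ± 0.06), and was called by DESeq2. Such genes are short and abundant, and the MIX minus OA difference had Spearman correlations over genes of 0.152, 0.0115 and 0.154 with gene length and of -0.176, -0.0151 and -0.127 with level in cows 1, 2 and 3. The part of length and level in these values was not tested.

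**Figure D4:**
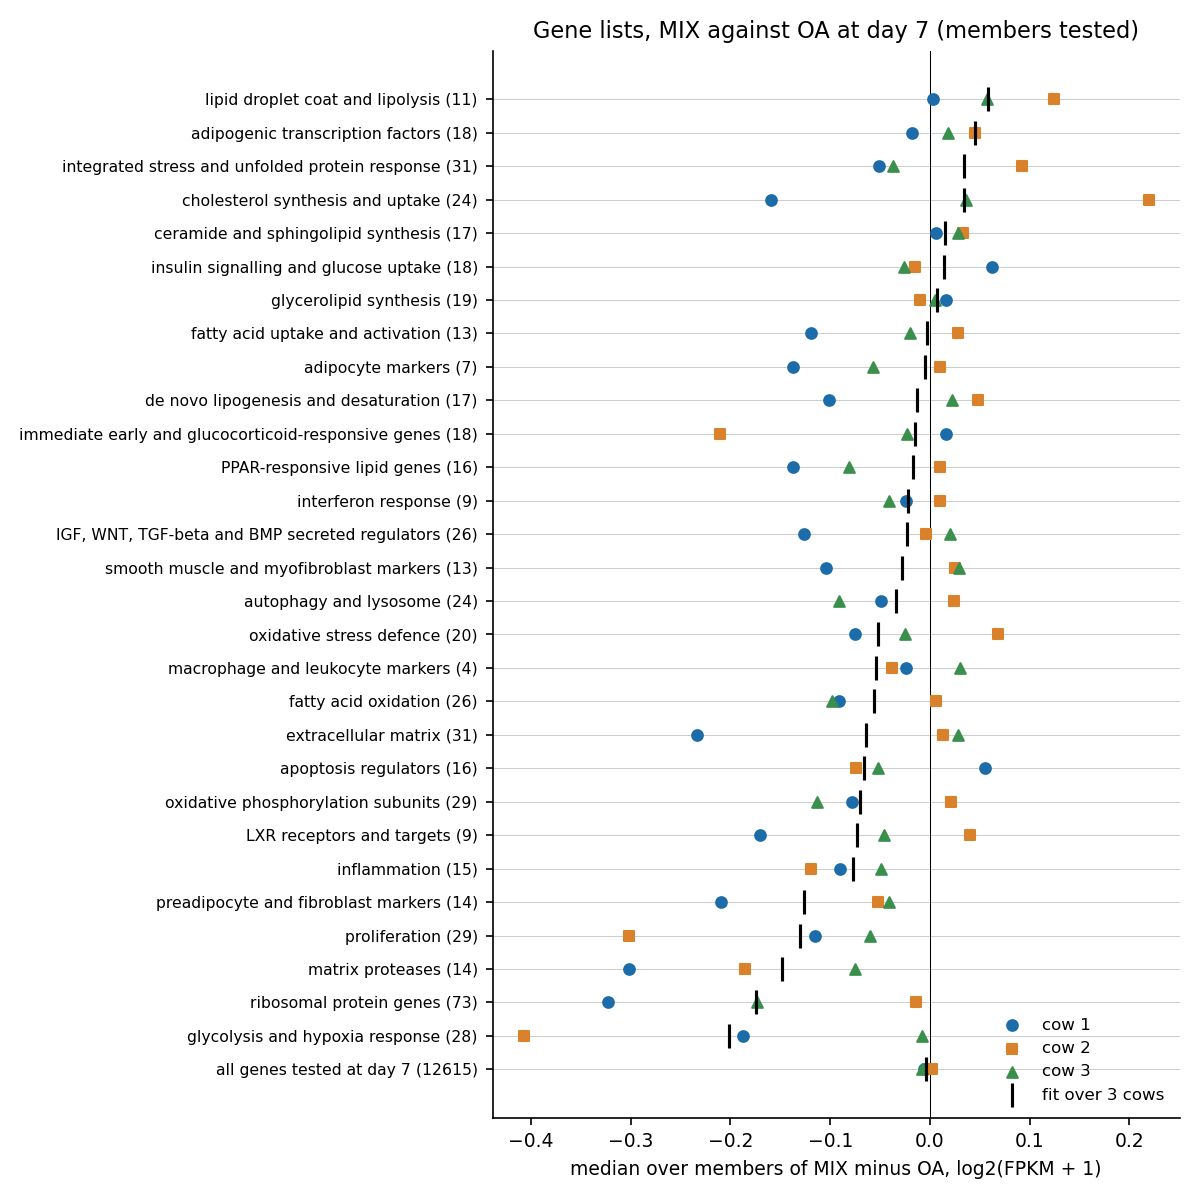
Median MIX minus OA difference on the log2(FPKM + 1) scale (x axis) of each gene list, with the number of members tested in parentheses; 1 point per cow and a black bar for the fit over the 3 cows. Glycolysis and hypoxia response, ribosomal proteins and matrix proteases lie furthest to the left of the lists with more than 10 members, with cow 2 lowest for glycolysis and cow 1 for ribosomal proteins.

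In fat-cell regulators the picture was mixed. Of 18 adipogenic transcription factors tested, 14 were higher and 4 lower in MIX, with a median of 0.05, and without the OA library of cow 2 the split was 9 and 9. *CEBPD*, an early adipogenic factor, had 522, 262 and 268 FPKM in MIX, against 623, 353 and 293 FPKM in OA (-0.27 ± 0.07), the smallest p of the list and lower in every cow. *PPARA*, the fatty acid receptor, had 1.68, 2.04 and 2.54 FPKM in MIX, against 1.92, 2.02 and 2.20 FPKM in OA, with an interval of -0.22 to 0.24. Of 14 preadipocyte and fibroblast markers, 12 were lower and 2 higher, with medians of -0.21, -0.05 and -0.04 in cows 1, 2 and 3. Without cow 1 that median was -0.05, with 8 lower and 6 higher.

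Set beside PA and CON of the same cow, OA more often than MIX was the extreme library. OA was the highest of the 4 libraries in all 3 cows for 601 of 12615 genes (4.76%) and the lowest for 397 (3.15%), while MIX was the highest for 170 (1.35%) and the lowest for 169 (1.34%). Of the 32 genes that DESeq2 called lower in MIX, OA was the highest library in every cow for 24 and MIX the lowest in every cow for 6. The genes were chosen on the MIX and OA values, so these last counts only describe where the other libraries lay. After each cow's mean was taken out, the OA libraries of cows 1 and 2 held 11.6% and 11.3% of the sum of squares, and the other 10 held 6.23% to 9.62% each.

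The same comparison after 4 days in cows 4, 5 and 6 gave no call by edgeR on the deposited counts (0 of 13580 genes, 0.0% each way), and 403 genes had an unadjusted p under 0.05 (2.97%), of which 189 were higher in MIX (1.39%) and 214 lower (1.58%). DESeq2 also gave 0, limma on FPKM gave 2, and the authors' deposited table for that day lists 0 genes at an adjusted p under 0.05 and 11 at an unadjusted p under 0.05. The difference between the days, tested by limma over 12132 genes in all 24 libraries, gave 0 calls (0.0%) and 735 genes at an unadjusted p under 0.05 (6.06%), with 249 above 0 (2.05%) and 486 below (4.01%). In the day 4 counts *ANXA8L1* differed between MIX and OA by 0.06 ± 0.14 (log2 fold change, edgeR), *COL18A1* by 0.02 ± 0.14, *LPCAT1* by -0.14 ± 0.07, *PLIN2* by -0.05 ± 0.08, *FOSL1* by -0.01 ± 0.08 and *B4GALT6* by 0.37 ± 0.20. Only for *LPCAT1* among these 6 was the unadjusted day 4 p under 0.05. *POFUT2* gave a day 7 minus day 4 difference of -0.35 ± 0.08 (limma unadjusted p = 0.000459, adjusted p = 0.674) and *CEBPD* one of -0.44 ± 0.10 (unadjusted p = 0.00036, adjusted p = 0.674). The glycolysis and hypoxia list had 15 members higher and 13 lower in MIX at day 4, with a median of 0.00, and the proliferation list 5 higher and 25 lower, with -0.15. The cholesterol list had 2 higher and 22 lower at day 4. Days, cows and the start of treatment cannot be told apart in this contrast, since no cow was sampled at both days and the fatty acids were present during induction only in the day 4 cultures.

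**Figure D5:**
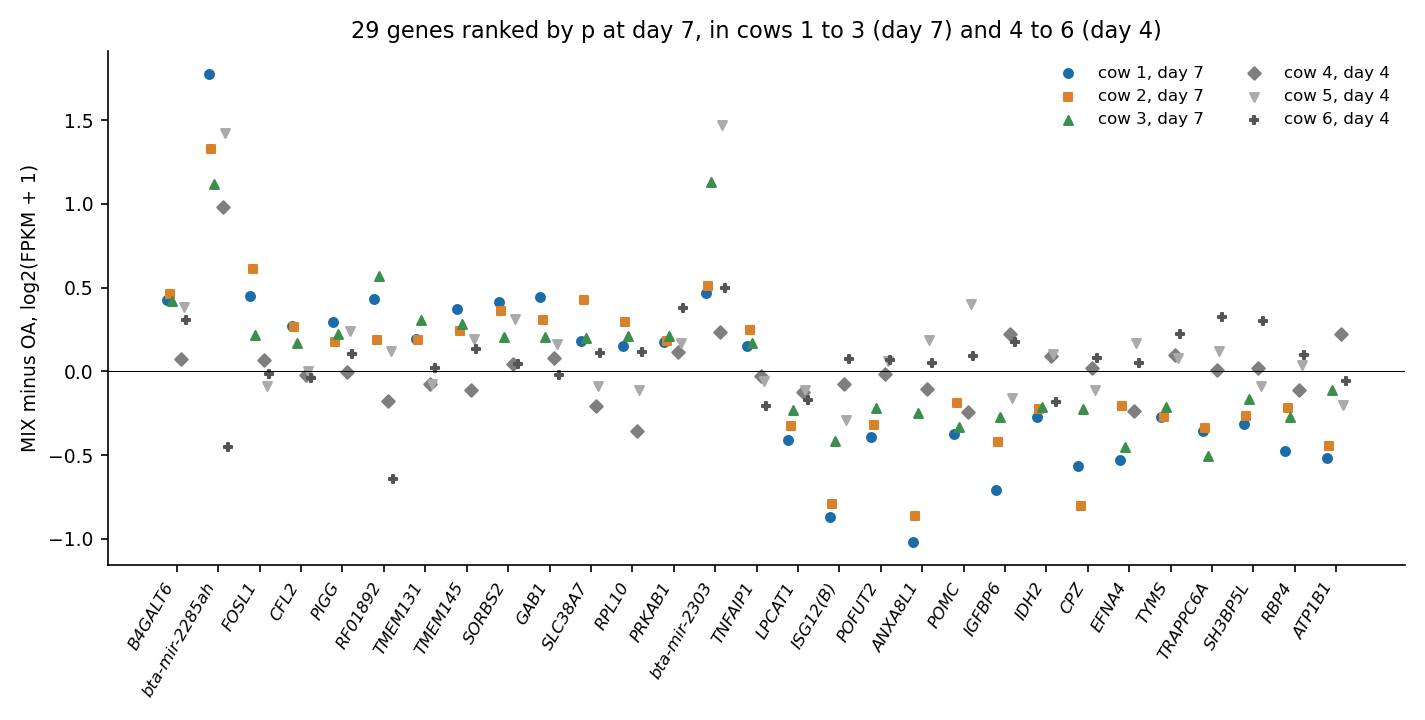
MIX minus OA differences on the log2(FPKM + 1) scale (y axis) of 29 genes ranked by p at day 7 (x axis), with 1 coloured point per cow of day 7 (cows 1 to 3) and 1 grey point per cow of day 4 (cows 4 to 6). The coloured points lie on 1 side of 0 for each gene, as the rule required, and the grey points lie on both sides for many.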

How the data were processed

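RNA of cultured bovine pre-adipocytes was sequenced in 24 libraries, 12 per day, from 6 cows. For day 7 the authors deposited FPKM per gene and gene length. For day 4 the deposited table holds raw counts and FPKM, with the authors' log2 fold changes, p-values and adjusted p-values. The gene length in bases, which enters here as a score per gene, is the authors', per the file headers. The submitters' processing notes name StringTie 1.3.3b, featureCounts 1.5.0-p3 and FastQC 0.11, without their roles. What aligner, build and strand setting were used is not given in the sources used here, so antisense partners may share reads.

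Day 7 FPKM were tested with limma 3.58.1 (trend) on log2(FPKM + 1), with treatment and cow as terms over all 12 day 7 libraries. Genes with at least 1 FPKM in at least 3 libraries were kept (12615 of 27570). A pseudocount of 1 understates differences of low genes. Reads were recovered from FPKM and gene length, 100% of values being whole within 0.01, and were tested with edgeR 4.0.16 (quasi-likelihood) and DESeq2 1.42.0 as alternatives, with cow as a block. Day 4 counts were tested with edgeR, and the difference between days with limma on FPKM. The 2 tables were normalized separately, so levels were not compared across days. P-values were two-sided and adjusted by Benjamini and Hochberg at 0.05, and intervals are 95% limits from limma. A count of 3 reads, the limit that a count of 0 allows, was 0.125 to 0.212 CPM at day 7, for counting error only. The scripts were tested on simulated data.

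The titles give the cow of each library. This pairing was checked: deviations from group means correlated at 0.772 to 0.864 over 18 same-cow pairs of day 7 and at -0.526 to -0.310 over 36 others. Deviations within a group sum to 0, so positive same-cow values make those of the other pairs negative on average. The negative range is thus no separate evidence of the pairing.

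Named genes were the 15 each way with the smallest p among genes that had a symbol, the same direction in all cows and, in the higher group, an average of 2 FPKM or more, since none passed, plus up to 4 of smallest p per list and a fixed set of lipid genes; a few of these are not reported here, and genes named outside this rule are said to be so. Across 30 lists there were 600 genes; 583 were found (7 by a synonym) and 497 were tested. The comparison, the lists and the named sets were chosen with earlier results of these data known. R 4.3.3, Python 3.11.15, pandas 2.3.3 and matplotlib 3.10.9 were used.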

Additional observations from a re-analysis of the deposited data

Results flagged for a closer look

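The 29 genes ranked by p at day 7 and reported here lay on 1 side of 0 in cows 1 to 3, as the rule required. In cows 4 to 6 at day 4, 4 of the 29 lay on the other side of 0. Of all 13580 genes tested at day 4, 13.8% were higher and 13.4% lower in MIX in 3 of 3 cows. The count of 4 was thus near the share of all genes. The day 7 minus day 4 differences of the 4 on the log2 scale were tested with limma over 12132 genes, and none passed an adjusted p of 0.05. *TYMS*, thymidylate synthase, gave -0.39 ± 0.09 (SE, unadjusted p = 0.000708, adjusted p = 0.674). *TRAPPC6A*, a vesicle tethering factor, gave -0.55 ± 0.19 (unadjusted p = 0.011, adjusted p = 0.763). Both were lower in MIX at day 7. *TNFAIP1*, an adaptor of a ubiquitin ligase, gave 0.28 ± 0.07 (unadjusted p = 0.000684, adjusted p = 0.674) and *CFL2*, the actin-severing cofilin, 0.26 ± 0.10 (unadjusted p = 0.0193, adjusted p = 0.805), both higher in MIX at day 7. The genes were ranked on day 7, and days, cows and the start of treatment cannot be told apart.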

How the results depend on the processing

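At day 7 limma with cow as a block called 0 genes, and 0 also with no replicate block, a pseudocount of 0.1, no filter, a mean of at least 5 FPKM, TMM rescaling, robust moderation or the 6 MIX and OA libraries alone. edgeR on recovered reads called 2 genes and DESeq2 33. Leaving out 1 cow or 1 library gave 0 to 6 calls by limma, the 6 without the OA library of cow 3. Among edgeR fits chosen after the data were examined, no replicate block gave 0, the 6 MIX and OA libraries alone 0, no filter 194 (41 higher, 153 lower), RLE scaling 2, and leaving out 1 cow or library 0 to 91: 5 without cow 2, 3 without cow 3, 3 without MIX of cow 3, 2 without OA of cow 1, 4 without OA of cow 2 and 91 without OA of cow 3. At day 4 edgeR called 0 with the replicate block and 0 without it, limma on FPKM 2 and no filter 7, and leaving out 1 cow gave 0 to 8, the 8 without cow 6. The difference between days gave 0 in every setting run. None of the 30 ranked genes changed sign under any alternative run. They were chosen on these same libraries for 1 direction in all cows, so this is part of that choice and no support for it. Of list medians, 879 values stayed within the spread between cows and 81 did not, and 19 of 31 lists (the ribosomal genes included) changed the sign of their median under at least 1 alternative. Depth and 3 cows limit the smallest differences that could be called.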
